A study of Arabidopsis thaliana with 16 samples.

Results

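The 53 nuclear genes described here encode the photosynthetic apparatus of Arabidopsis thaliana, and were taken by locus identifier from the 32678 loci counted in every library. They comprise 9 genes of the trimeric light-harvesting complex II (LHCII), 6 of the minor photosystem II (PSII) antenna, 6 of the photosystem I (PSI) antenna, 10 PSII subunits, 12 PSI subunits, 3 electron carriers, 5 genes of Rubisco and its activase, and the transcription factors GLK1 and GLK2. The study sequenced mRNA from leaves and roots of untreated plants at an age of 25 days, which had stood in Oil-Dri pellets and been fed Hoagland solution. Every group descended from pho1-4, a knockout mutant of the phosphate exporter gene PHO1. The groups were EXS34 and EXS32, which are 2 independent pho1-4 lines carrying a GFP fusion of the PHO1 protein's EXS domain, then KO, the pho1-4 mutant itself, and Compl, pho1-4 complemented with the PHO1 gene. Each of the 4 genotypes had 2 leaf and 2 root libraries, which gives 16 libraries in 8 groups. No unmutated wild type was among them, each EXS genotype was 1 line, the promoter behind the transgenes is not given in the labels, and nothing in the labels ties the paired libraries to different plants. The p-values therefore measure the spread between libraries, which may be technical.

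The leaf files disagreed with the leaf labels. The leaves labelled EXS34 came in files named for pho1-4, those labelled EXS32 in files named for EXS34, those labelled KO in files named for the complemented line, and those labelled Compl in files named for EXS32. The root files matched their labels. Groups follow the labels throughout, and every leaf direction below is a direction between labelled groups. Summed over 10 phosphate starvation marker genes, leaves labelled EXS34 held 3063 and 1839 CPM (counts per 1000000 reads after TMM scaling within each organ), leaves labelled EXS32 519.6 and 715.2, leaves labelled KO 263.5 and 281.9, and leaves labelled Compl 547.2 and 593.9. In roots the same sum was 919.5 and 1184 CPM in EXS34, 1032 and 1195 in EXS32, 1209 and 1788 in KO, and 557.9 and 587.2 in Compl. PHO1 itself had 2395 and 1439 CPM in EXS34 roots, 1891 and 1886 in EXS32 roots, 2221 and 1937 in KO roots, and 2267 and 2934 in Compl roots. Its leaf values were 61.92 and 45.93 CPM in leaves labelled EXS34, 72.3 and 87.39 in EXS32, 60.61 and 63.45 in KO, and 76.02 and 110.4 in Compl. In both organs the KO and Compl means differed by less than the gap between the 2 Compl libraries, so PHO1 reads checked no label.

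Leaf libraries held 9465995 to 15530134 gene reads and root libraries 20139794 to 31405117. Multiply aligned reads were left out of the counts and amounted to 5.759% to 6.273% of the reads listed for leaf libraries and 6.481% to 7.966% for root libraries. All 10 shoot and leaf identity markers had reads in every leaf library. In roots 5 to 7 of the 10 had a read, and YAB1 and YAB5, which specify leaf polarity, were at 0 in all 8 root libraries.

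Light-harvesting proteins (LHCB at PSII, LHCA at PSI) hold chlorophyll and pass excitation to the 2 photosystems. PSII oxidises water, electrons travel through the cytochrome b6f complex and plastocyanin to PSI, and the Calvin cycle uses the resulting reducing power after Rubisco has fixed CO2. GLK1 and GLK2 are transcription factors that switch on antenna and chlorophyll synthesis genes in leaves, and in roots chloroplast development is normally held back. The core subunits of both photosystems are encoded in the plastid and are not among the 53 genes.

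Several families consist of near-identical copies, which limits what the counts of a single copy can say, and the coding starts of 2 tandem clusters show why. The first 120 coding bases of LHCB1.1, LHCB1.2 and LHCB1.3, which lie side by side on chromosome 1, are printed with capitals at every base that is not the same in all 3 copies; 9 bases are. Sequences are from RefSeq on TAIR10.1, 5′ to 3′ on the coding strand.
LHCB1.1: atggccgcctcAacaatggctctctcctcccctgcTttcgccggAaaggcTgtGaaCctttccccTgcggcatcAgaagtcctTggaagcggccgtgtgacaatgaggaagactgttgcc
LHCB1.2: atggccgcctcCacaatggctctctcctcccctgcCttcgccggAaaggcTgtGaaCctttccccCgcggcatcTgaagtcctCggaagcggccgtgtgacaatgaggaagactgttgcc
LHCB1.3: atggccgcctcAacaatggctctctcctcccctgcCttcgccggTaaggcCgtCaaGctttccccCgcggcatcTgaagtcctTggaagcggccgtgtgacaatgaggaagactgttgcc
Over all 804 coding bases, LHCB1.1 and LHCB1.2 were 95.6% identical, LHCB1.1 and LHCB1.3 96.1%, and LHCB1.2 and LHCB1.3 96.4%. The same stretch is shown for RBCS1B, RBCS2B and RBCS3B, neighbouring Rubisco small subunit genes on chromosome 5, with 10 bases in capitals.
RBCS1B: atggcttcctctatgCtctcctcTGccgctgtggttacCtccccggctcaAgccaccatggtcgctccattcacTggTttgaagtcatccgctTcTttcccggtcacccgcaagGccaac
RBCS2B: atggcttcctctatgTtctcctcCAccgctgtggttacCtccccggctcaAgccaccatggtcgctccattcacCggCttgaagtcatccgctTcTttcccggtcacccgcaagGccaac
RBCS3B: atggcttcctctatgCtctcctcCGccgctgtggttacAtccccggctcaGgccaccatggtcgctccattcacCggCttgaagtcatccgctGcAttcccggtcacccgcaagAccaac
RBCS1B and RBCS2B differed at 15 of 546 coding bases. Of all windows of 50 bases in its exons, 71.85% occurred at no other place in the genome's annotated exons for LHCB2.2, 77.3% for LHCB2.1, 78.56% for RBCS2B and 79.53% for LHCB1.1, the lowest shares among the members. A read inside a shared stretch was not counted for any copy, and is missing from family sums too.

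The 250 bases before the annotated start of 5 antenna genes are shown because the 3 LHCB2 genes fell together in the leaf comparisons and the related genes LHCB4.2 and LHCB4.3 went in opposite directions. Capitals mark matches, on either strand, to the G-box CACGTG, the I-box core GATAAG, the sequence CCAATC or the CCA1 site AAAAATCT. The windows are chr2:1824481-1824730 (LHCB2.1, minus strand), chr2:1800473-1800722 (LHCB2.2, minus strand), chr3:10255656-10255905 (LHCB2.3, plus strand), chr3:2717307-2717556 (LHCB4.2, plus strand) and chr2:16745378-16745627 (LHCB4.3, plus strand) of TAIR10.1, from RefSeq.
LHCB2.1: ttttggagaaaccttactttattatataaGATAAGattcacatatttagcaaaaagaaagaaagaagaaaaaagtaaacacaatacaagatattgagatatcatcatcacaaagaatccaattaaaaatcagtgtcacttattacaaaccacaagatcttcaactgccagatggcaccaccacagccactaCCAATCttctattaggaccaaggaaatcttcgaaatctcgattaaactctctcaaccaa
LHCB2.2: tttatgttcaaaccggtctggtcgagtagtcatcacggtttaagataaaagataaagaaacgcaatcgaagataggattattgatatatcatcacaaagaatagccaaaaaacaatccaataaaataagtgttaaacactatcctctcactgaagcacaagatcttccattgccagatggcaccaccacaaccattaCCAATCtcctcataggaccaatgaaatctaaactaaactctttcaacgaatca
LHCB2.3: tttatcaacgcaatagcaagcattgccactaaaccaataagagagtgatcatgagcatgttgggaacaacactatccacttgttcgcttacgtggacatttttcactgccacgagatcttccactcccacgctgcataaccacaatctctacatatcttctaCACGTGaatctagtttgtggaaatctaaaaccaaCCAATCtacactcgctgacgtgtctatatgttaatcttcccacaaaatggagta
LHCB4.2: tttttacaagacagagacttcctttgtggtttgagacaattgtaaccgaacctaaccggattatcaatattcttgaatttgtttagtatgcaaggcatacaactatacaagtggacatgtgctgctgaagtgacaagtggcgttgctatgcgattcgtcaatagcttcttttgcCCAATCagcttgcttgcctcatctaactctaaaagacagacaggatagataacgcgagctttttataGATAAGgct
LHCB4.3: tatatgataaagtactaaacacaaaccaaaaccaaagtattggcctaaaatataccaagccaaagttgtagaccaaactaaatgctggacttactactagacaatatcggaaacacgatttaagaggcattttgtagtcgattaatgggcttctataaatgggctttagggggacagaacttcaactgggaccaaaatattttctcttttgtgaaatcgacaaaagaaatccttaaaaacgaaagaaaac
CCAATC stood in the windows of all 3 LHCB2 genes and of LHCB4.2, and LHCB4.3 held none of the 4 motifs. Among the 53 genes, CCAATC was in 14 windows (26.4%), against 10.2% of the windows of 27443 protein-coding genes. By complex it was in 5 of 9 LHCII, 2 of 6 minor antenna, 3 of 6 PSI antenna and 2 of 3 electron carrier genes. It was also in 1 of 10 PSII subunit, 0 of 12 PSI subunit, 1 of 5 Rubisco and 0 of 2 GLK genes. The G-box was in 10 windows (18.9%, against 6.49% of all genes), the I-box core in 14 (26.4%, against 12.3%) and the CCA1 site in 6 (11.3%, against 6.69%). A match is a string of letters and was not tested as a binding site.

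All 53 genes were higher in leaves than in roots, as the mean over the 4 genotypes. The 53 together took 12.756% to 17.036% of the gene reads of a leaf library and 0.022% to 0.078% of those of a root library. In edgeR's quasi-likelihood test with Benjamini-Hochberg adjustment over 21351 genes, every one of the 53 had an adjusted p under 0.05 and a higher leaf level, where 38.4% of all genes tested were called higher and 81.6% were called in either direction. The median log2 difference was 9.21 over the members and -0.06 over all genes tested. In bulk tissue, fewer cells of a type and less RNA per cell cannot be told apart.

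Organ differences spread widely within the trimeric and the minor antenna. LHCB1.1 (AT1G29920) had the largest among genes above 3 reads in every root genotype, with a log2 difference of 14.24 ± 0.29 (SE). That estimate rested on 54 root reads against 280819 leaf reads. Of the root reads, 28 came from KO replicate 2, and 1 root genotype had only 4. LHCB1.3 (AT1G29930) had the smallest of the complex, 8.19 ± 0.22. It reached 170.5 and 196.1 CPM in EXS34 roots, 37.77 and 89.68 in EXS32 roots, 71.4 and 104 in KO roots, and 67.87 and 59.84 in Compl roots, and was the most abundant member in every root library. Of the minor antenna, which links the trimers to the PSII core, LHCB6 differed most (9.38 ± 0.17). LHCB7 (AT1G76570), a rarely expressed antenna-like gene, differed least of all 53, by 2.22 ± 0.11. It had 6.123 to 8.398 CPM in leaves and 1.403 to 3.683 CPM in roots. These CPM ranges did not overlap, but each organ was scaled on its own, unlike in the fit.

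In the PSI antenna, LHCA5 differed by 10.24 ± 0.18 and LHCA4 by 8.16 ± 0.17. LHCA6 (AT1G19150), which together with LHCA5 joins PSI to the chloroplast NADH dehydrogenase-like complex, had 3 reads in the 8 root libraries together and 11330 in the 8 leaf libraries. Among PSII subunits, PSBS (AT1G44575), the sensor for photoprotective quenching, differed most (11.24 ± 0.17) and PSBX least (8.09 ± 0.15). Among PSI subunits the range was narrow, from PSAE2 (8.32 ± 0.10) to PSAK (9.80 ± 0.09). Plastocyanin is encoded by PETE1 and PETE2, which marked the 2 ends of the electron carriers at 8.19 ± 0.10 and 10.30 ± 0.21.

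Minor Rubisco small subunit genes had hardly a read in roots. RBCS1B had 10 reads in all root libraries together and 116235 in leaves, and RBCS2B had 27 and 206011. Both were at 3 reads or fewer in at least 1 root genotype, as was LHCA6, so no fold change is given for these 3 genes. RBCS3B differed by 13.16 ± 0.24 and RCA, the activase that clears inhibitors from Rubisco, by 9.84 ± 0.19. The regulators differed least as a group, GLK1 (AT2G20570) by 7.80 ± 0.07 and GLK2 (AT5G44190) by 3.16 ± 0.14.

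**Figure D1:**
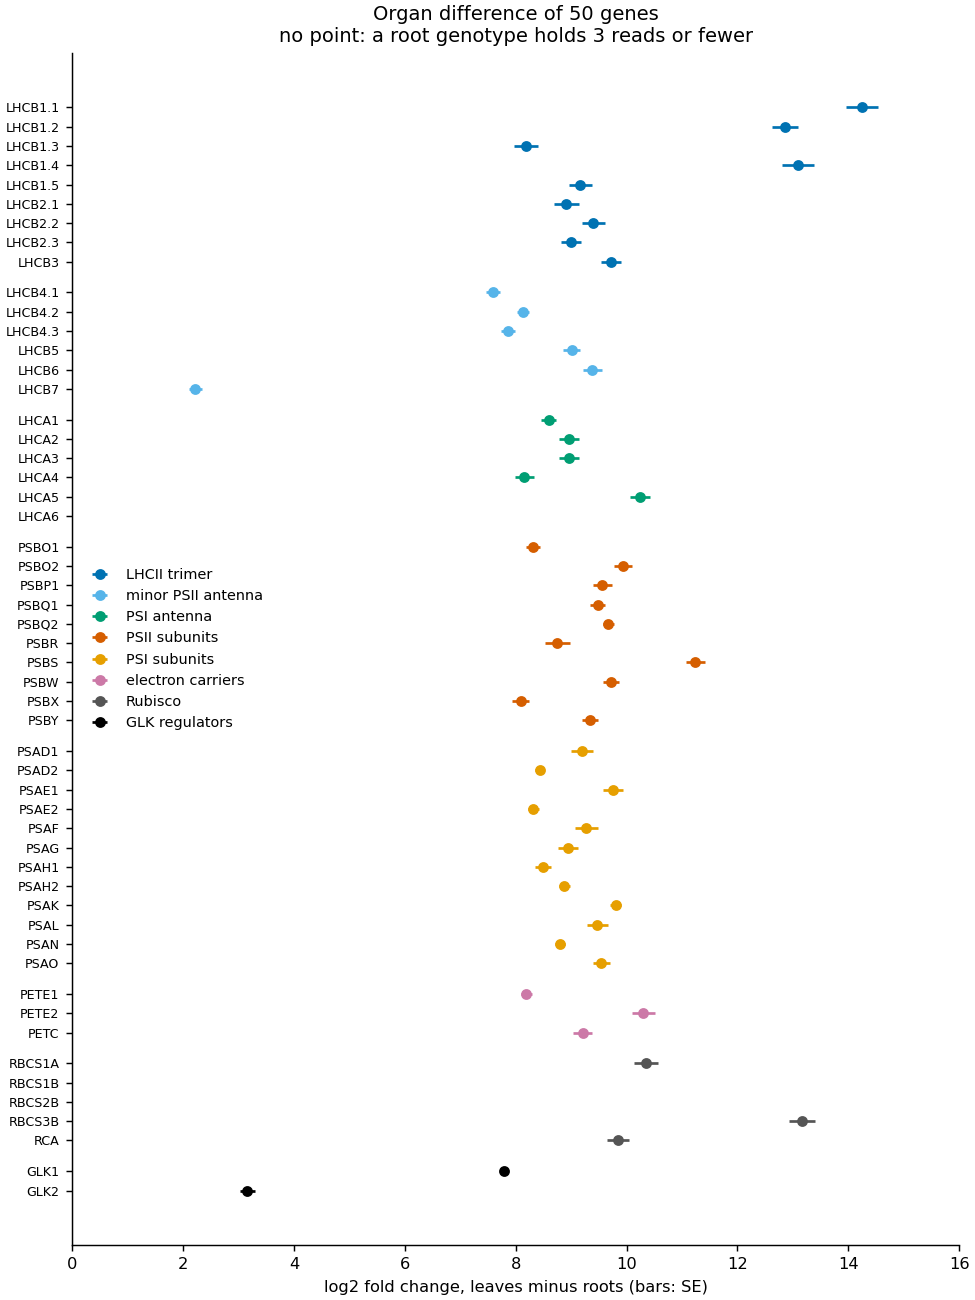
Fitted log2 difference, leaves minus roots as the mean over 4 genotypes, for 50 of the 53 genes, in order of complex; points are estimates, bars are standard errors, and LHCA6, RBCS1B and RBCS2B have no point because a root genotype held 3 reads or fewer. The points run from 2.22 for LHCB7 to 14.24 for LHCB1.1, and GLK2 at 3.16 is the other gene far below the rest.

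Per kilobase of exon, 17 of the 20 most abundant leaf transcripts were members, as were 34 of the top 50 and 41 of the top 100. RBCS1A (AT1G67090) ranked first of 31904 genes with a leaf mean of 14733 CPM per kb and LHCB1.3 second with 14627 CPM per kb. In roots none of the 53 was in the top 1000. LHCB1.3 came nearest at rank 1351, with 81.01 CPM per kb, ahead of RBCS1A at rank 6317 with 20.04 CPM per kb.

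The share of a family's reads that came from 1 copy did not overlap between leaf and root libraries in 6 of 11 families (LHCB1, RBCS, GLK, PSBO, PSAE and PETE) and overlapped in 5 (LHCB2, LHCB4, PSBQ, PSAD and PSAH). Families of other genes were not counted, so the 6 have no background. LHCB1.3 gave 80.43% to 90.73% of LHCB1 reads in root libraries and 45.83% to 62.42% in leaf libraries. RBCS1A gave 91.64% to 98.54% of RBCS reads in roots and 65.47% to 74.01% in leaves. GLK2 gave 83.03% to 92.27% of the reads of the GLK pair in roots and 17.14% to 26.03% in leaves, so GLK1 was the main copy in leaves and GLK2 in roots. For plastocyanin, PETE2 was the main copy in both organs, at 70.97% to 87.36% in roots and 92.67% to 94.71% in leaves. For PSAE, which forms the stromal docking side of PSI, PSAE1 gave 40% to 62.5% in roots and 72.81% to 74.13% in leaves. These shares are descriptions over 8 libraries an organ, with no test. In the LHCB1, LHCB2 and RBCS families copies share sequence as shown above. In the other families every exon window of 50 bases was unique among annotated exons.

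**Figure D2:**
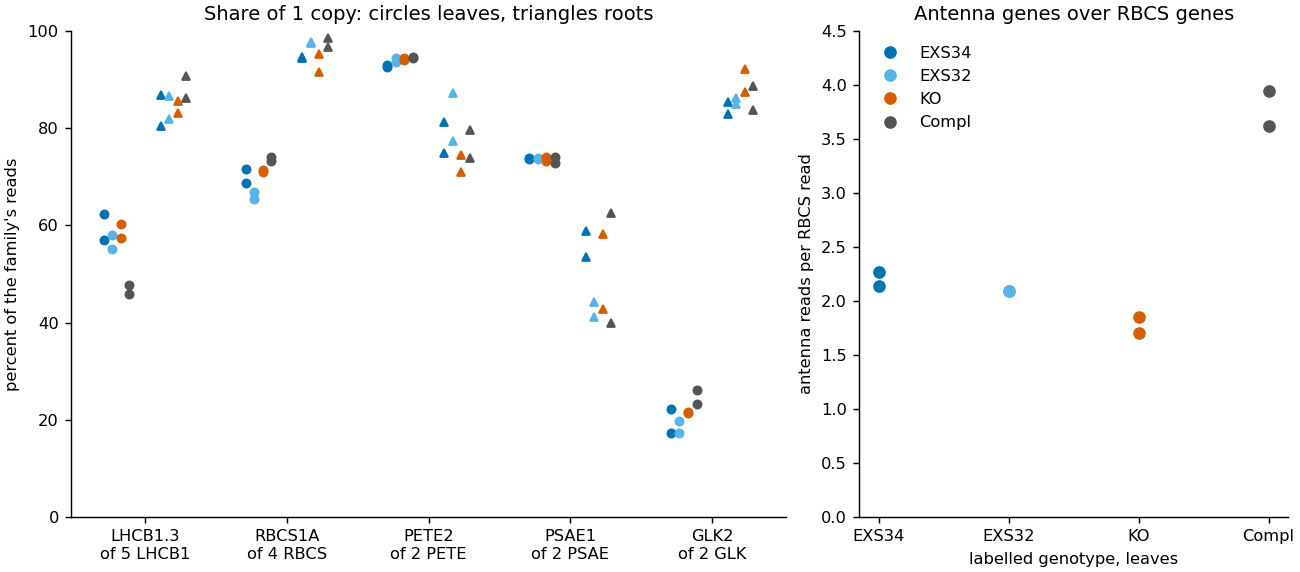
Left, percent of a family's reads that came from 1 copy, per library, with circles for leaves and triangles for roots and colours for the labelled genotype; leaves and roots separate in the 5 families shown, which were picked from the 6 of 11 without overlap. Right, reads of the 21 antenna genes divided by reads of the 4 RBCS genes in each leaf library, which lie between 1.7 and 2.27 in the leaves labelled EXS34, EXS32 and KO and at 3.95 and 3.62 in the leaves labelled Compl.

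Across leaf groups, the trimeric antenna was lower in the leaves labelled EXS34, EXS32 and KO than in the leaves labelled Compl, whose files are named for EXS32. Summed over its 9 genes, it held 31543 and 31975 CPM in leaves labelled EXS34, 35483 and 30718 in EXS32, 31651 and 32208 in KO, and 55391 and 55203 in Compl. All 6 libraries of the first 3 groups lay below both libraries labelled Compl. Rubisco and its activase held 29170 and 27782 CPM in EXS34, 34158 and 31423 in EXS32, 36382 and 34054 in KO, and 26570 and 29241 in Compl, so the leaves labelled KO and EXS32 lay above those labelled Compl, and those labelled EXS34 overlapped them. The ratio of antenna reads to RBCS reads was 2.14 and 2.27 in EXS34, 2.09 and 2.09 in EXS32, 1.7 and 1.85 in KO, and 3.95 and 3.62 in Compl.

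**Figure D3:**
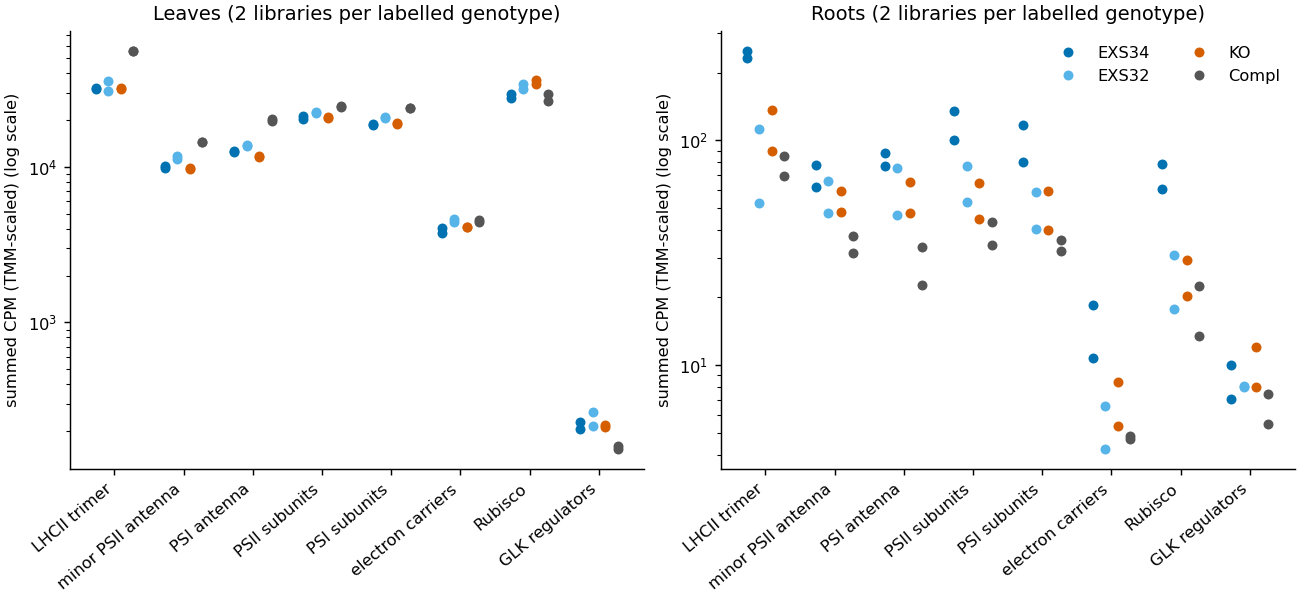
Summed CPM of each complex in every library on a log axis, leaves on the left and roots on the right, with 2 points per labelled genotype and separate vertical scales. Leaves labelled Compl lie above all other leaves in the 3 antenna groups and also in the PSII and PSI subunits. In roots both EXS34 libraries lie above all others in every class except the minor antenna and the GLK regulators.

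By the test, 38 of the 53 genes changed in leaves labelled EXS34 against those labelled Compl (5 higher, 33 lower, where 18.3% of 18548 genes tested were called, 9.54% higher and 8.8% lower). Against the same libraries, 29 changed in leaves labelled EXS32 (8 higher, 21 lower, against 14.8% of all genes, 8.34% higher and 6.51% lower) and 39 in leaves labelled KO (8 higher, 31 lower, against 21.1%, 10.5% higher and 10.6% lower). The median log2 difference of the 53 was -0.31, -0.19 and -0.35 in that order, and between -0.02 and 0.00 over all genes. Leaving out 1 library at a time in each fit, 20 of the 38, 16 of the 29 and 21 of the 39 calls were kept whichever library was left out; 11, 11 and 14 were kept under every alternative, and none changed direction. In 1 fit of all 16 libraries the counts were 13 (12.4% of all genes called), 13 (9.83%) and 16 (15%). Dropping Compl replicate 1 or 2 gave 24 or 22 calls for EXS34 and 18 or 17 for EXS32, and dropping KO replicate 1 gave 22 for KO. These 3 comparisons share the 2 libraries labelled Compl, so their values are given side by side and are not independent of each other. With that in view, 21 genes were lower in all 3 (9 LHCII, 2 minor antenna, 4 PSI antenna, 3 PSII and 3 PSI subunits) and 5 were higher in all 3 (GLK1, LHCA6, LHCB4.3, RBCS1B and RBCS2B). How many of all genes were called in the same direction in all 3 was not counted, so these counts have no background.

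All 9 LHCII genes were lower in each of the 3 comparisons. LHCB2.3 (AT3G27690) had 205.5 and 151 CPM in leaves labelled EXS34, 183.7 and 209.4 in EXS32, 110.1 and 108 in KO, and 516.7 and 541.3 in Compl. All 6 values were less than the lower one labelled Compl, and those labelled KO were the lowest. Its log2 difference from Compl was -1.57 ± 0.14 (SE) in EXS34, -1.43 ± 0.14 in EXS32 and -2.28 ± 0.14 in KO, with adjusted p of 0.000289, 0.000327 and 3.61e-05 by edgeR. LHCB2.1 (AT2G05100) followed the same order, with 463.5 and 340 CPM in EXS34, 453.2 and 438.7 in EXS32, 250.9 and 234.7 in KO, and 976.2 and 951 in Compl. Its difference in leaves labelled KO was -1.99 ± 0.13 (adjusted p = 4.51e-05).

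The LHCB1 family, which makes most of the trimers, had a smaller estimate in its main copy than in LHCB1.4; the difference between copies was not tested. LHCB1.3 had 15360 and 17463 CPM in leaves labelled EXS34, 17133 and 15365 in EXS32, 16423 and 17628 in KO, and 22872 and 21683 in Compl. That is a log2 difference of -0.44 ± 0.08, -0.46 ± 0.08 and -0.39 ± 0.08. LHCB1.4 (AT2G34430) had 1734.9 and 1170 CPM in EXS34, 2146 and 1404 in EXS32, 1726 and 1512 in KO, and 5137 and 5763 in Compl, a log2 difference of -1.91 ± 0.27, -1.62 ± 0.27 and -1.75 ± 0.27. LHCB1.3 gave a mean of 59.69% of LHCB1 reads in EXS34, 56.64% in EXS32, 58.85% in KO and 46.79% in Compl. The family sum, which also lacks the reads that aligned to several copies, was 26962 and 27977 CPM in EXS34, 31029 and 26458 in EXS32, 28596 and 29244 in KO, and 47896 and 47314 in Compl. LHCB3, the third kind of trimer protein, had 3231 and 2988 CPM in EXS34, 3325 and 3041 in EXS32, 2331 and 2269 in KO, and 4938 and 5401 in Compl.

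**Figure D4:**
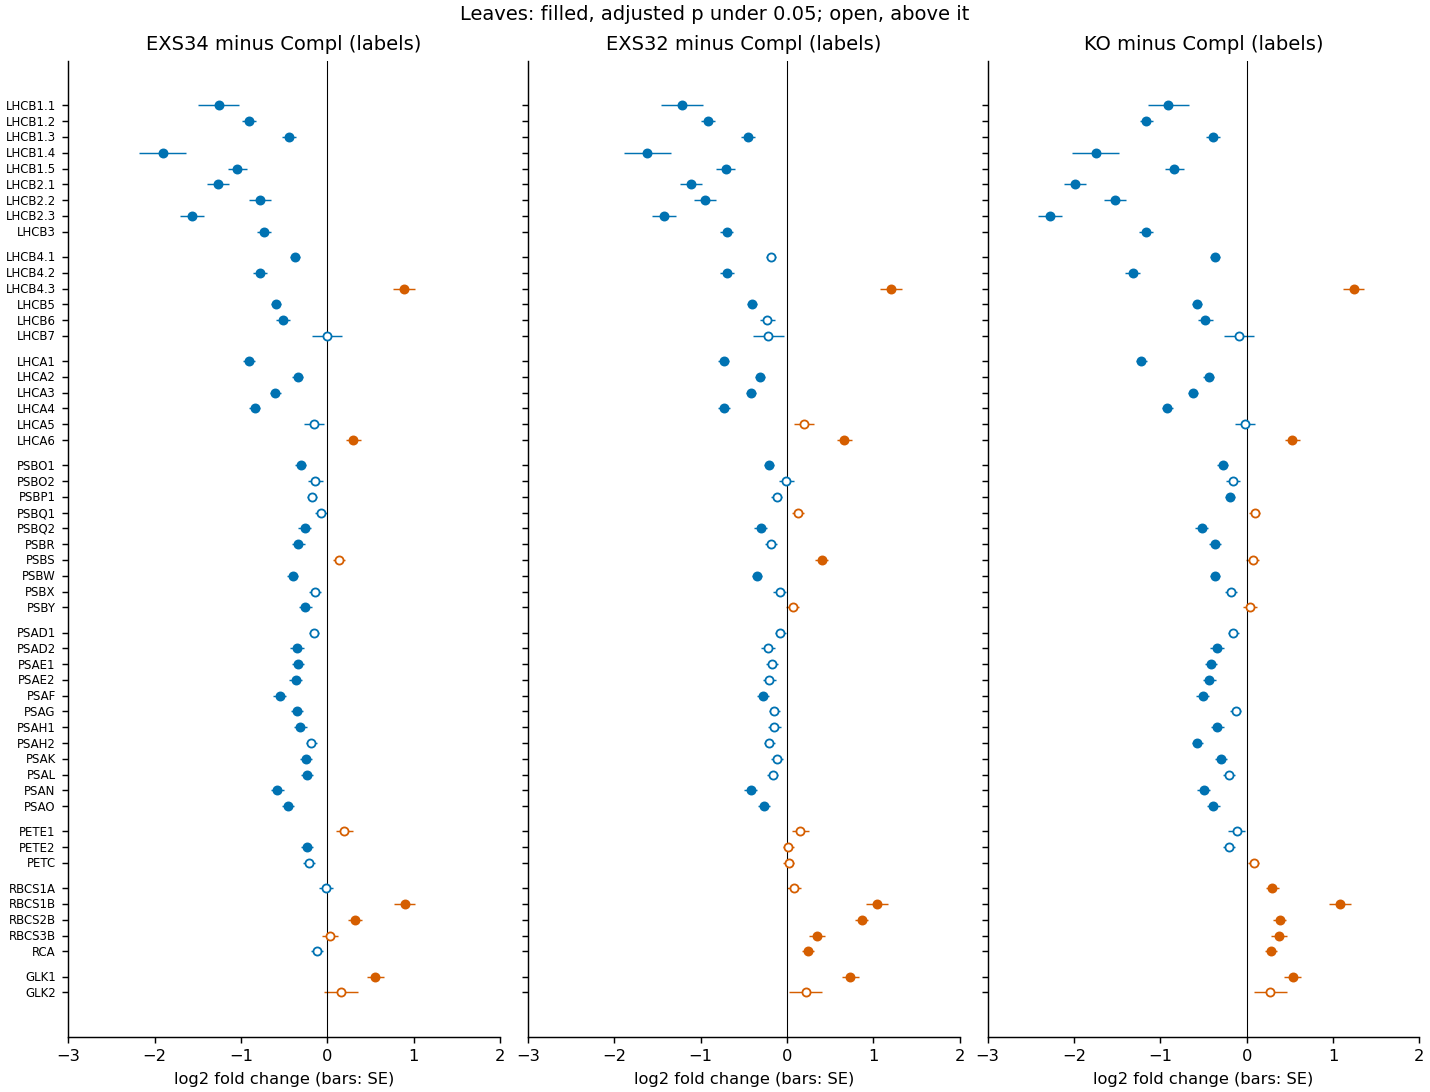
Log2 fold change of each of the 53 genes in leaves, for EXS34, EXS32 and KO minus Compl by label, in order of complex; filled points had an adjusted p under 0.05, open points did not, blue is lower, orange is higher, and bars are standard errors. The 9 LHCII genes are lower in all 3 panels, with LHCB2.3 at -2.28 in KO, while LHCB4.3, LHCA6, RBCS1B, RBCS2B and GLK1 are higher in all 3.

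In the minor antenna, the LHCB4 family encodes CP29, and its copy with the fewest leaf reads went against the others. LHCB4.1 gave 66.09% to 78.38% of LHCB4 reads in leaf libraries, and LHCB4.3 gave 0.5478% to 2.358%. LHCB4.1 had 2939 and 2844 CPM in leaves labelled EXS34 and 3321 and 3257 in EXS32. It had 2883 and 2922 CPM in KO, and 3748 and 3740 in Compl. LHCB4.2 (AT3G08940) had 1111 and 1035 CPM in leaves labelled EXS34, 1068 and 1207 in EXS32, 722.1 and 746.6 in KO, and 1785 and 1888 in Compl. It was lower by -0.77 ± 0.08, -0.69 ± 0.08 and -1.32 ± 0.08 on the log2 scale, with adjusted p of 0.000523, 0.000788 and 3.47e-05. LHCB4.3 (AT2G40100) went the opposite way, with 66.31 and 60.18 CPM in EXS34, 77.46 and 80.42 in EXS32, 72.89 and 88.61 in KO, and 37.35 and 31 in Compl. Its log2 differences were 0.89 ± 0.13, 1.21 ± 0.13 and 1.24 ± 0.13 (adjusted p = 0.0024, 0.000478 and 0.000272). LHCB5 (CP26) was lower in all 3 comparisons, by -0.59, -0.41 and -0.58, while LHCB6 (CP24) was lower in EXS34 and KO and did not pass in EXS32 (-0.23 ± 0.09, adjusted p = 0.108). LHCB7 passed in none.

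In the PSI antenna, LHCA1 to LHCA4 fell in all 3 comparisons. LHCA1 (AT3G54890) had 2613 and 2446 CPM in leaves labelled EXS34, 2777 and 2918 in EXS32, 1995 and 2073 in KO, and 4649 and 4831 in Compl. The groups did not overlap, and its log2 difference was -0.91 ± 0.07, -0.74 ± 0.07 and -1.22 ± 0.07. LHCA4 had 3672 and 3360 CPM in EXS34, 3878 and 3716 in EXS32, 3333.0 and 3330.1 in KO, and 6196 and 6416 in Compl. LHCA6 rose, with 107.3 and 116.7 CPM in EXS34, 150.1 and 137.5 in EXS32, 130.2 and 131.7 in KO, and 89.58 and 92.03 in Compl, whereas LHCA5 passed in none, at -0.16 ± 0.12, 0.20 ± 0.12 and -0.02 ± 0.12.

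Of the 10 PSII subunits, 5 fell in leaves labelled EXS34, 3 in EXS32 and 5 in KO, with differences between -0.52 and -0.19 on the log2 scale. PSBQ2, part of the oxygen-evolving side, had 2473 and 2614 CPM in EXS34, 2312 and 2625 in EXS32, 2090 and 2166 in KO, and 3014 and 3092 in Compl. PSBS rose in leaves labelled EXS32 (0.40 ± 0.07, adjusted p = 0.00707), with 1098 and 1125 CPM against 854.5 and 828.1 in Compl; it stood at 876.1 and 972.4 in EXS34 and 881.3 and 885.7 in KO, where it did not pass. Of the 12 PSI subunits, 10 fell in EXS34, 3 in EXS32 and 9 in KO, and all 12 had negative estimates in each comparison. PSAN, on the plastocyanin side of PSI, fell most in EXS34 (-0.58 ± 0.07) and EXS32 (-0.42 ± 0.07), and PSAH2, at the site where LHCII docks on PSI, fell most in KO (-0.57 ± 0.06).

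The electron carriers had the fewest calls, with PETE2 lower in EXS34 (-0.23 ± 0.07, adjusted p = 0.0383) and no other call. PETC, the Rieske protein of cytochrome b6f, had estimates of -0.21 ± 0.07, 0.02 ± 0.07 and 0.08 ± 0.07. Rubisco genes went upward: 2 of 5 in EXS34, 4 of 5 in EXS32 and all 5 in KO. RBCS1B (AT5G38430) had 1099 and 1469 CPM in EXS34, 1344 and 1500 in EXS32, 1437 and 1477 in KO, and 677.6 and 702.7 in Compl, and its log2 difference was 0.90 ± 0.12, 1.04 ± 0.13 and 1.08 ± 0.13. RBCS2B rose most in EXS32 (0.87 ± 0.08). RBCS1A, the main copy, rose in KO (0.30 ± 0.08, adjusted p = 0.0266) and had estimates of -0.02 ± 0.08 in EXS34 and 0.08 ± 0.08 in EXS32. The RBCS family sum was 25404 and 23922 CPM in EXS34, 29107 and 26624 in EXS32, 31265 and 29073 in KO, and 22659 and 24856 in Compl.

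GLK1 rose in all 3 comparisons. It had 169.7 and 177.6 CPM in leaves labelled EXS34, 179.9 and 212 in EXS32, 168 and 172.9 in KO, and 122.5 and 113.3 in Compl, with log2 differences of 0.56 ± 0.10, 0.73 ± 0.10 and 0.53 ± 0.10. GLK2 passed in none, at 0.16 ± 0.20, 0.21 ± 0.20 and 0.27 ± 0.19. Shoot and leaf identity markers summed to 8764 and 9043 CPM in EXS34, 4749 and 10803 in EXS32, 7745 and 7489 in KO, and 13322 and 10704 in Compl, with all 10 detected in every library; TGG1 and TGG2, which encode myrosinases, made up nearly all of these sums. The other 8 markers summed to 140.4 and 181.8 CPM in EXS34, 238.4 and 193.6 in EXS32, 137.3 and 136.9 in KO, and 153.6 and 165.3 in Compl, a split chosen after the values were seen. Of the 10, EPFL9 rose and none fell in EXS34 (0.98 ± 0.23), CER1 rose (2.32 ± 0.46) and YAB1 fell (-0.65 ± 0.13) in EXS32, and YAB1 (-1.01 ± 0.13), MYB60 (-1.17 ± 0.19) and TMM (-0.89 ± 0.19) fell in KO with none rising. Their part in the differences of the 53 genes was not tested.

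Fewer genes were called among the leaves labelled EXS34, EXS32 and KO. In leaves labelled EXS32 against those labelled KO, 9 genes rose and none fell (background 5.93%, of which 3.52% higher): LHCB2.1, LHCB2.2, LHCB2.3, LHCB3, LHCB4.2, LHCA1, PSBS, PSAH2 and RBCS2B. LHCB2.1 (0.88 ± 0.13) and LHCB2.3 (0.85 ± 0.14) rose most. In leaves labelled EXS34 against those labelled KO, which the file names call pho1-4 against the complemented line, 10 genes changed (background 6.41%, with 3.27% higher and 3.14% lower). The LHCB2 genes, LHCB3, LHCB4.2, LHCA1 and PSAH2 were higher, led by LHCB2.2 (0.75 ± 0.13), and RCA (-0.41 ± 0.07), RBCS1A (-0.31 ± 0.08) and PETC (-0.29 ± 0.07) were lower. Leaving out either library labelled KO left 0 calls in both comparisons by edgeR, and the EXS32 count was 5 and 4 without EXS32 replicate 1 and 2.

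Leaves labelled EXS34 against those labelled EXS32 gave 4 lower genes (background 5.69%, with 3.43% lower): RBCS2B (-0.54 ± 0.08), RCA (-0.37 ± 0.07), LHCA6 and PSBY. Taken in either direction, a count of 4 was near what 5.69% gives for the 53 genes. RBCS2B had 1968 and 2115 CPM in EXS34 and 2980 and 2971 in EXS32, and its call was kept whichever library was left out, unlike the other 3; the count was 1 without either EXS32 library and 7 without EXS34 replicate 2. GLK1 did not pass in any of these 3 comparisons (0.20 ± 0.10, 0.03 ± 0.10 and -0.18 ± 0.10), nor did GLK2 (-0.06 ± 0.19, -0.12 ± 0.19 and -0.06 ± 0.19).

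In roots, reads of photosynthesis genes were few, and EXS34 held the most. Summed over the 53 genes, EXS34 roots held 628.9 and 774.1 CPM, EXS32 roots 270.3 and 434.1, KO roots 303.3 and 434.6, and Compl roots 262.9 and 221.9. Both EXS34 libraries lay above all 6 others. The sum of the 10 shoot and leaf identity markers was not highest in EXS34 roots, at 3.872 and 11.8 CPM, against 8.455 and 16.44 in EXS32, 29.01 and 17.26 in KO, and 23.39 and 9.773 in Compl. Without TGG1 and TGG2 the other 8 summed to 3.098 and 2.622 CPM in EXS34, 2.849 and 2.419 in EXS32, 1.703 and 1.583 in KO, and 21.99 and 2.501 in Compl, where CER1 gave 21 CPM of the 21.99. The 8 root markers summed to 638.5 and 903 CPM in EXS34, 563.6 and 586.7 in EXS32, 897.9 and 639 in KO, and 1101 and 1033 in Compl.

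Most of these root differences did not pass the test across 20597 genes, in which 49 of the 53 were tested; LHCB1.1, LHCA6, RBCS1B and RBCS2B fell short of the minimum count. In EXS34 against Compl, 48 of the 53 had both EXS34 libraries above both Compl libraries, where 20.2% of genes at 1 CPM or more did, and the median log2 difference of the 49 was 1.66 against -0.003 over all genes. Only PSBQ2 passed (1.97 ± 0.22, adjusted p = 0.0471, background 0.131%, with 0.0825% higher), 44 had an unadjusted p under 0.05 (14.4% of all genes), DESeq2 called 36 (3%), limma-voom 0 (0.00971%) and edgeR with all 16 libraries in 1 fit 38 (1.91%). PSBQ2 (AT4G05180) had 9.638 and 10.56 CPM in EXS34 roots, 5.101 and 7.012 in EXS32 roots, 2.64 and 2.825 in KO roots, and 2.598 and 2.547 in Compl roots. Its call was lost on leaving out any single library other than Compl replicate 2.

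PSBS and RBCS3B had the largest root estimates in EXS34 against Compl. PSBS had 3.227 and 3.431 CPM in EXS34 roots, 0.04595 and 0.4101 in EXS32 roots, 0.3474 and 0.745 in KO roots, and 0.3118 and 0.1389 in Compl roots. Its estimate against Compl was 3.88 ± 0.72 (adjusted p = 0.0941 by edgeR), from 75 and 89 reads in EXS34 and 6 and 3 in Compl. RBCS1A had 50.04 and 60.99 CPM in EXS34 roots, 12.59 and 22.88 in EXS32 roots, 12.96 and 19.06 in KO roots, and 15.38 and 9.356 in Compl roots, an estimate of 2.17 ± 0.36 (adjusted p = 0.0838). LHCB1.2 had 3.098 and 3.238 CPM in EXS34 roots and 0.5717 and 0.1853 in Compl roots. The lowest estimate was that of LHCB4.3 (-0.34 ± 0.58), with 0.2151 and 0.5783 CPM in EXS34 and 0.4157 and 0.6021 in Compl.

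EXS32 roots against Compl roots gave 7 higher genes and no lower one (background 12.4%, with 5.1% higher), with a median of 0.42. They were PSAN (2.09 ± 0.24, adjusted p = 0.00509), LHCB4.2 (1.65 ± 0.24, 0.00884), PSBQ2 (1.24 ± 0.22), LHCA4 (1.48 ± 0.32), PSBO1, LHCA1 and LHCB2.3. Taken in either direction, a count of 7 was near what 12.4% gives for the 49 genes tested. PSAN (AT5G64040) had 8.915 and 9.555 CPM in EXS32 roots and 2.546 and 1.806 in Compl roots, and LHCB4.2 had 7.674 and 10.54 against 3.014 and 2.779. LHCB1.3 had an estimate of -0.001 ± 0.37 there and RBCS1A 0.53 ± 0.35. The count was 0 without EXS32 replicate 2, 2 without EXS32 replicate 1 and 4 or 5 without any other library, and limma-voom called 4 (10.3% of all genes).

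In KO roots against Compl roots no member passed in edgeR (background 0.884%), 11 had an unadjusted p under 0.05 (19.9% of all genes), DESeq2 called 4 (6.14%) and limma-voom 0 (0.379%). The median was 0.60. The 2 largest estimates were those of LHCB1.4 and RBCS3B, and the 2 smallest those of LHCB4.3 (-1.24 ± 0.61) and PSBO2 (-0.54 ± 0.44). In EXS34 against KO no gene of the genome passed (background 0%), while 36 members had an unadjusted p under 0.05 (9.08% of all genes), DESeq2 called 5 (0.456%), limma-voom 0 (0%), and the median was 0.99. PSBS (2.59 ± 0.61) and LHCA5 (2.296 ± 0.94) had the largest estimates there, and LHCB7 (-0.55 ± 0.27) and GLK2 (-0.32 ± 0.29) the smallest. In EXS34 against EXS32 no member passed (background 0.908%), 32 had an unadjusted p under 0.05 (17.6% of all genes), DESeq2 called 22 (5.25%) and limma-voom 0 (0.617%), with a median of 1.19. The estimates ran there from LHCB2.3 (-0.72 ± 0.55) and PSAN (-0.65 ± 0.22) to LHCB1.2 (3.20 ± 0.76) and PSBS (3.80 ± 0.70). In EXS32 against KO none passed (background 0.126%), 5 had an unadjusted p under 0.05 (11.5% of all genes), DESeq2 called 2 (2.61%), limma-voom 0 (0.107%), and the median was -0.20, with RBCS3B (-1.27 ± 0.76) and PSBS (-1.21 ± 0.76) lowest and PSAN (1.32 ± 0.22) and LHCB2.3 (1.77 ± 0.58) highest.

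**Figure D5:**
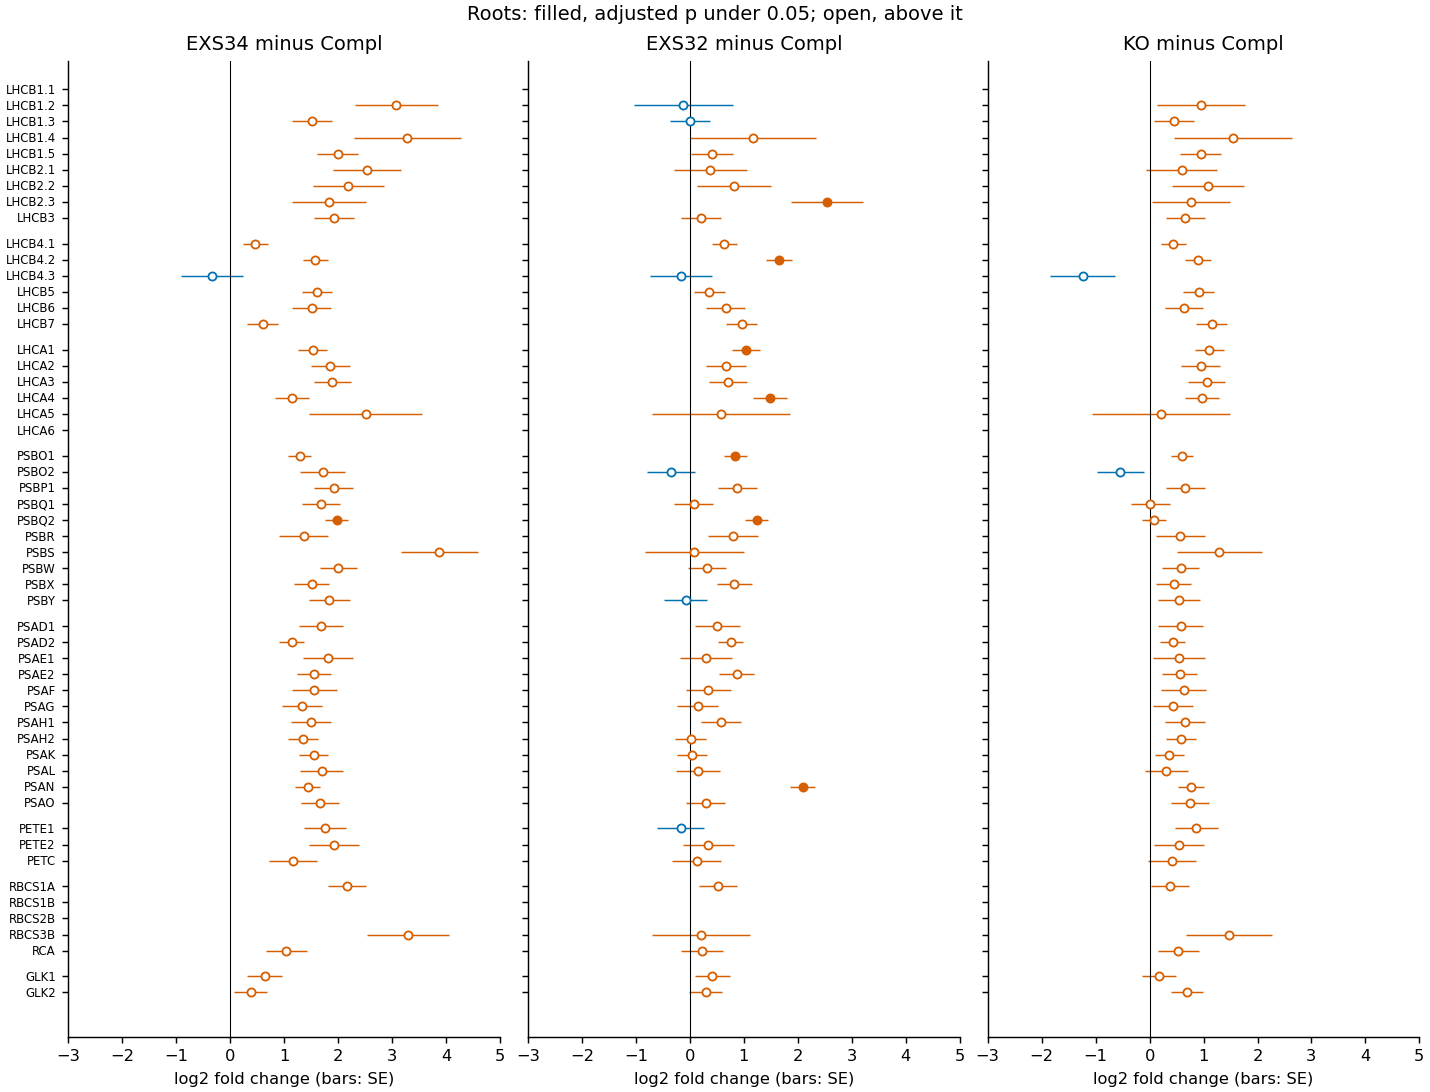
Log2 fold change of the 49 tested genes in roots, for EXS34, EXS32 and KO minus Compl, drawn as in the leaf plot. In EXS34, 48 of 49 points lie to the right of 0 but PSBQ2 alone is filled; in EXS32, 7 points are filled, and in KO none is.

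The GLK genes showed no called change in roots. GLK1 had 1.205 and 1.465 CPM in EXS34 roots, 1.103 and 1.189 in EXS32, 1.008 and 0.9313 in KO, and 0.8835 and 0.8337 in Compl. GLK2 had 5.895 and 8.597 CPM in EXS34 roots, 6.939 and 6.766 in EXS32, 7.018 and 11.11 in KO, and 4.573 and 6.577 in Compl, and its groups overlapped between EXS34 and Compl.

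The difference between organs was tested as the leaf contrast minus the root contrast in 1 fit of all 16 libraries, and it depends on which leaf group is which genotype. That fit took 1 spread per gene for both organs, and the calls within each organ changed under it. For EXS34 minus Compl it called 1.91% of all genes in roots and 12.4% in leaves. The fits of single organs called 0.131% and 18.3%. By label, 40 members had a lower EXS34 minus Compl contrast in leaves than in roots (background 6.34%, with 3.56% lower), with the lowest adjusted p for PSBQ2 (-2.24 ± 0.22) and LHCB4.2 (-2.36 ± 0.24); by file name the count was 14 (0.871% of all genes called). For KO minus Compl, 20 members differed by label (background 13.4%, with 5.85% higher and 7.52% lower), with LHCB4.2 (-2.23) lower and LHCB4.3 (2.47) alone higher, and 1 differed by file name (1.61%). The other contrasts gave 10 members for EXS32 minus Compl (16.3% of all genes called, 8.68% lower), 8 for EXS34 minus KO (1.74%, 0.717% lower), 1 for EXS32 minus KO (1.55%, 0.445% lower) and 20 for EXS34 minus EXS32 (6.78%, 3.9% lower), all lower in leaves than in roots. By file name these 4 counts were 2 (8.26% of all genes), 1 (0.0609%), 0 (2.55%) and 19 (1.64%).

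Other genes of the pathway were taken from fixed lists. Of 12 Calvin cycle genes, 7 rose in leaves labelled EXS34, 9 in EXS32 and 11 in KO against those labelled Compl, and none fell. Of all genes tested, 9.54%, 8.34% and 10.5% were called higher in that order, and 8.8%, 6.51% and 10.6% lower. FBA1, a chloroplast aldolase, rose by 0.63 ± 0.10, 0.82 ± 0.10 and 0.85 ± 0.10, and TKL1, a transketolase, by 0.44 ± 0.06, 0.58 ± 0.06 and 0.62 ± 0.06. Of 14 chlorophyll synthesis genes, 3 rose and 2 fell in EXS34, 3 rose and 1 fell in EXS32, and 4 rose and 3 fell in KO. GUN4, an activator of magnesium chelatase, rose by 0.91 ± 0.10, 1.02 ± 0.10 and 0.82 ± 0.10, and CRD1, a cyclase subunit, fell by 0.47, 0.44 and 0.45. PORB, a protochlorophyllide reductase, fell in KO (-0.67 ± 0.08). FD1, a minor leaf ferredoxin, rose by 0.51 ± 0.10, 0.83 ± 0.10 and 1.33 ± 0.10 among 6 genes of the ATP synthase and ferredoxin branch.

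Of 12 other regulators, PIF4, a phytochrome-interacting factor, fell in all 3 comparisons (-0.67 ± 0.09, -0.39 ± 0.09 and -0.61 ± 0.09), SIG1, a plastid sigma factor, rose in all 3 (0.53, 0.42 and 0.49), and HY5, a light-response factor, rose in KO (1.21 ± 0.29). The 11 plastid-encoded loci held 30.12 and 30.49 CPM in leaves labelled EXS34, 54.33 and 45.48 in EXS32, 54.89 and 50.88 in KO, and 50.04 and 45.96 in Compl; all 11 had negative estimates in EXS34 against Compl (median -0.61), where 1 fell, and 1 rose in KO. Against leaves labelled Compl, 8.8% of all genes were called lower in EXS34 and 10.5% higher in KO. These plastid values come from libraries that select polyadenylated RNA. In roots, ATPC1, a subunit of the chloroplast ATP synthase, rose against Compl in EXS34 (1.63 ± 0.15), EXS32 (2.21 ± 0.15) and KO (1.39 ± 0.15). CHLM, a chlorophyll synthesis methyltransferase, rose in EXS32 (1.59 ± 0.16) and KO (1.095 ± 0.16). CHLM was 1 of 4 chlorophyll synthesis genes that rose in EXS32 roots, of 13 tested. There 2 of the 10 other regulators tested also rose and 3 of 8 root markers fell. Of all genes, 12.4% were called in that comparison, 5.1% higher. Of 10 phosphate starvation markers, 8 rose in EXS32 roots and in KO roots against Compl roots and none passed in EXS34 roots. The shares of all genes called were 12.4%, 0.884% and 0.131% in that order. Between organs, all 14 chlorophyll synthesis, 12 Calvin cycle and 6 ATP synthase and ferredoxin genes were higher in leaves, as were 11 of 12 regulators, HY5 being lower (-1.103). Of all genes tested between organs, 38.4% were called higher in leaves.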

How the data were processed

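The files hold raw counts of reads per locus that the authors deposited for 16 libraries, per the labels made from total RNA with a stranded TruSeq mRNA kit. The submitters' processing notes name HTSeq 0.5.4p3, TopHat2 2.0.9 and cutadapt 1.2.1, with edgeR and limma under R 3.1.1 and the build TAIR10, but no settings. The 5 closing lines that name no gene took 7.263% to 7.769% of leaf and 8.573% to 10.257% of root reads and were left out. CPM was computed as counts per 1000000 reads of each library's effective size (its reads in genes that passed the filter, times its TMM factor); leaves and roots were scaled separately.

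Each organ was fitted with its 8 libraries in edgeR 4.0.16 (R 4.3.3) by the quasi-likelihood test, with filterByExpr (minimum count 10, minimum total 15), TMM scaling and Benjamini-Hochberg adjustment over all genes tested, called at 0.05. The organ contrast and its interactions came from 1 fit of all 16 libraries. The fit was tested on simulated data. DESeq2 1.42.0, limma-voom (limma 3.58.1), other scalings, filters and left-out libraries were alternatives. Libraries of each group differed by more than counting noise. Replicate numbers were not taken to pair samples across groups. Sequences and exon lengths came from RefSeq on TAIR10.1, in which all 53 genes were found; figures were drawn with matplotlib 3.10.9.

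The 53 genes and the other lists were chosen with earlier results of these data known. Genes named per comparison were called members with the lowest adjusted p (up to 30), the 2 largest and 2 smallest estimates where fewer than 4 were called, GLK1 and GLK2, the highest and lowest organ difference per complex, and up to 4 of each other list; further genes were chosen after their values were seen.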

Additional observations from a re-analysis of the deposited data

Results flagged for a closer look

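The leaf contrast and the root contrast between the same labelled genotypes differed, by an interaction term in edgeR's quasi-likelihood fit of all 16 libraries, for 40 genes in EXS34 minus Compl, 10 in EXS32 minus Compl, 20 in KO minus Compl, 8 in EXS34 minus KO, 1 in EXS32 minus KO and 20 in EXS34 minus EXS32. The shares of all genes called were 6.34%, 16.3%, 13.4%, 1.74%, 1.55% and 6.78% in that order. The counts for EXS32 minus Compl and EXS32 minus KO were near what those shares give for 53 genes. The fit took 1 spread per gene for both organs. With leaf groups named by their files, the counts were 14, 2, 1, 1, 0 and 19 in that order. The shares of all genes were then 0.871%, 8.26%, 1.61%, 0.0609%, 2.55% and 1.64%. PSAN was the 1 gene of EXS32 minus KO (-1.26, adjusted p = 0.0174), and PSBS in EXS34 minus EXS32 (-4.02, adjusted p = 0.0013) rested on 1 and 10 reads in EXS32 roots.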

How the results depend on the processing

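All 53 genes stayed higher in leaves under the 23 alternatives run for the organ contrast, with a median between 8.65 and 9.37. No called gene changed direction under the alternatives checked for direction. Leaf groups named by their files were left out of that check, so the direction of interaction calls under that naming is not known. Counts of called genes moved by over 1.5 times as follows, and the cause was not tested. With all 16 libraries in 1 fit, leaves gave 13 for EXS34 minus Compl, 13 for EXS32 minus Compl, 16 for KO minus Compl, 0 for EXS34 minus KO, 1 for EXS32 minus KO and 0 for EXS34 minus EXS32, and roots gave 38, 12, 7, 7, 2 and 27. With only the 4 libraries compared, leaves gave 2 for EXS34 minus KO and 0 for EXS34 minus EXS32, and roots gave 0 for EXS34 minus Compl, 3 for EXS32 minus Compl, 1 for EXS32 minus KO and 1 for EXS34 minus EXS32. In roots DESeq2 called 36 in EXS34 minus Compl, 4 in KO minus Compl, 5 in EXS34 minus KO, 2 in EXS32 minus KO and 22 in EXS34 minus EXS32, and limma-voom called 0 in EXS34 minus Compl and 4 in EXS32 minus Compl. DESeq2 size factors gave 0 and no filter on low counts gave 3 in EXS34 minus Compl roots, and no filter gave 2 in EXS34 minus EXS32 roots. Library size as the only scaling gave 2 in EXS34 minus EXS32 leaves. Leaf groups named by their files gave interaction counts of 14 for EXS34 minus Compl, 2 for EXS32 minus Compl, 1 for KO minus Compl, 1 for EXS34 minus KO and 0 for EXS32 minus KO.

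Leaving out 1 library at a time, leaves gave 22 to 37 for EXS34 minus Compl, 17 to 30 for EXS32 minus Compl, 22 to 39 for KO minus Compl, 0 to 10 for EXS34 minus KO, 0 to 11 for EXS32 minus KO and 1 to 7 for EXS34 minus EXS32. Roots gave 0 to 1, 0 to 5, 0 to 0, 0 to 0, 0 to 1 and 0 to 0 in that order, and interactions 32 to 41, 7 to 16, 9 to 23, 4 to 11, 0 to 3 and 10 to 25. Where a group is left with 1 library, that library is assumed to vary like the others.

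Replicate numbers correlated at -0.401 to 0.299 between root groups and 0.036 to 0.416 between leaf groups, and 1 leaf pair and 5 root pairs of groups were at or under 0.1, so the numbers were not taken to pair the samples, although 5 of 6 leaf pairs were over 0.1. With the replicate number as a block, leaves gave 38 for EXS34 minus Compl, 28 for EXS32 minus Compl, 38 for KO minus Compl, 14 for EXS34 minus KO, 9 for EXS32 minus KO and 6 for EXS34 minus EXS32, roots 1, 6, 0, 0, 0 and 0, the organ contrast 53, and interactions 41, 12, 22, 8, 3 and 24.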
